A study of Rattus norvegicus with 6 samples.

Results

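The ADAM, ADAMTS and TIMP genes encode a set of zinc metalloproteinases and their inhibitors. They were taken from the expression table by symbol, as every gene named Adam, Adamts, Adamtsl or Timp followed by a digit. This gave 52 of the 30560 genes in the table: 25 Adam genes, 19 Adamts genes, 5 Adamtsl genes and 3 Timp genes (Timp1, Timp3 and Timp4). No gene in the table carried the symbol Timp2, so it was not analysed here and is not part of the Timp sums and ratios below.

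RNA was sequenced from primary ventricular fibroblasts of newborn Sprague-Dawley rats aged 1 to 2 days, grown on after preferential attachment and kept without serum overnight. The antagomiR group of 3 libraries was transfected with an antagomiR against miR-142-3p, which its labels also call a knockdown. The control group of 3 libraries, NC, was transfected with a negative control oligonucleotide. Both groups received 50 nM with the same lipid reagent, and the labels did not say whether the libraries came from separate cell isolations. An antagomiR is a modified antisense oligonucleotide that binds a mature microRNA, and the comparison asked which transcripts differ when this microRNA is targeted. The mature sequence is shown because it is what the antagomiR pairs with; it is from RefSeq (GRCr8, chr10:73055155-73055177, plus strand), with the seed (bases 2 to 8) in capitals.
rno-miR-142-3p: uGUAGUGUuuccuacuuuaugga

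ADAM proteins sit in the cell membrane, where the active ones cut the outer part off growth factors, cytokines and receptors. ADAMTS enzymes are secreted and cut matrix proteins such as versican, aggrecan and procollagen, while ADAMTS-like proteins share their binding domains but lack the protease. TIMP proteins occupy the active site of matrix metalloproteinases and, to differing degrees, of ADAM and ADAMTS enzymes. In heart fibroblasts these families take part in turnover of the matrix and in release of membrane-bound signals.

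Libraries held between 19472409 and 24622667 fragments, recovered from the steps in the FPKM values, and 3 fragments on a gene of 1 kb correspond to 0.122 to 0.154 FPKM. Counts of called markers are to be read against all tested genes, of which 17.5% were called up and 9.21% down. The fibroblast collagen gene Col1a1 lay between 3972 and 4727 FPKM in all 6 libraries. Of 8 fibroblast markers 4 rose (Pdgfra by 1.59, Dcn by 1.37, Tcf21 by 0.47 and Ddr2 by 0.39 on the log2 scale), and Thy1 and Col1a2 were called down, neither of them without antagomiR replicate 1 or 3. Mural cell markers fell for 4 of 5 tested (Acta2, Notch3, Myh11 and Cspg4). The 8 found summed to 1960 to 2065 FPKM in antagomiR libraries and 3045 to 3297 FPKM in NC libraries. Most of that was Acta2, with means of 1795 FPKM with the antagomiR and 2959 FPKM in NC. Pdgfrb, at -0.10, was not called but was called down without NC replicate 3. The untested Kcnj8, Abcc9 and Rgs5 went the other way. Their means were 0.309, 0.403 and 0.220 FPKM with the antagomiR and 0.0980, 0.219 and 0.124 FPKM in NC. The groups overlapped for Rgs5 only. The 7 endothelial markers found summed to 3.54 to 3.79 FPKM with the antagomiR and 2.40 to 2.72 FPKM in NC. Of these Emcn was at 0 and Kdr and Vwf were under 0.1 FPKM throughout, and Tek, at 1.57 to 2.65 FPKM, was called up by 0.32, a call that held in the fit without NC replicate 3 but in no other that left out 1 library. The 8 cardiomyocyte markers summed to 302 to 362 FPKM with the antagomiR and 393 to 436 FPKM in NC. Most of that was Tnnt2, at 227 to 364 FPKM, while Myh6, Tnni3 and Ryr2 were each under 4 FPKM. Tnnt2 was called down, at -0.42, and Myh7 and Myl2 up, at 0.39 and 0.41, while the other 4 tested were not called. The call of Tnnt2 was lost without NC replicate 2, and that of Myh7 without antagomiR replicate 1 or 3 or NC replicate 2. The 4 epicardial markers found summed to 10.5 to 12.9 FPKM with the antagomiR and 15.1 to 16.8 FPKM in NC. Upk3b and Msln were called down, at -0.71 and -0.35. Of the fits that left out 1 library, only the one without NC replicate 2 kept the call of Msln. Wt1, at 0.27, was not called but was called up without NC replicate 3, and Upk1b, with a mean of 0.560 FPKM, was not tested. Leukocyte transcripts were present and differed between libraries. The 14 leukocyte markers that were found summed to 1043, 935 and 983 FPKM in antagomiR replicates 1 to 3, and to 140, 207 and 725 FPKM in NC replicates 1 to 3. The largest part of each sum was Lyz2, which was not called. It had 566, 484 and 520 FPKM in antagomiR replicates 1 to 3 and 62.7, 105 and 390 FPKM in NC replicates 1 to 3. All 14 were highest, among NC libraries, in NC replicate 3, and 6 of the 14 rose with the antagomiR. Without NC replicate 3 this count was 13, where 26.5% of all tested genes were called up. Without any other single library the count was 3, where 10.1% to 15.2% of all tested genes were called up. The 6 that rose with all libraries were Adgre1, Aif1, Tyrobp, Laptm5, Cd14 and Ptprc. On the log2 scale they rose by 3.59, 2.25, 1.95, 1.93, 1.93 and 1.12. Csf1r, Itgam, Cd68 and Lyz2 were not called, at 1.97, 2.45, 1.78 and 2.82 times the NC mean. Mean levels of the uncalled Mrc1, C1qa, C1qb and Cd74 with the antagomiR were 0.94, 1.01, 0.98 and 0.77 times the NC mean. Against NC replicates 1 and 2 alone they were 1.70, 1.59, 1.63 and 1.37 times. The part of these cell type markers in the results below was not tested. In these bulk samples a shift in the number of cells of one type cannot be told apart from a shift in RNA per cell.

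The tested members were the 29 of 52 whose average reached 1 FPKM across all 6 libraries. With limma on log2(FPKM + 1), adjusted over all 12024 genes tested and called at an adjusted p under 0.05, 10 of the 29 rose and 10 fell with the antagomiR, while 9 were not called. Over all tested genes 26.7% were called, 17.5% up and 9.21% down. Of the 10 that rose, Adamts4 reached the minimum only through the antagomiR libraries, with an NC mean of 0.693 FPKM. The groups did not overlap for 24 of the 29, where this held for 44.6% of all tested genes. The median log2 fold change of the 29 was 0.15, against 0.06 over all tested genes, and single values ran from -0.95 for Adamts12 to 1.59 for Adam12. Without NC replicate 3, the library with the most leukocyte RNA of its group, 11 members rose and 11 fell, and all 20 calls were kept, where 26.5% of all genes were called up and 13.9% down. The count of members that fell was 6 without antagomiR replicate 1 (5.99% of all genes called down), without antagomiR replicate 3 (5.55%) or without NC replicate 1 (7.67%). Quantile normalization, which shifted the median of all genes by -0.11, and median-ratio scaling each kept 19 of the 20 calls in their direction. Each called 9 members up and 11 down. Quantile normalization called 11.8% of all genes up and 15.5% down, and median-ratio scaling 13.1% up and 12.3% down.

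**Figure D1:**
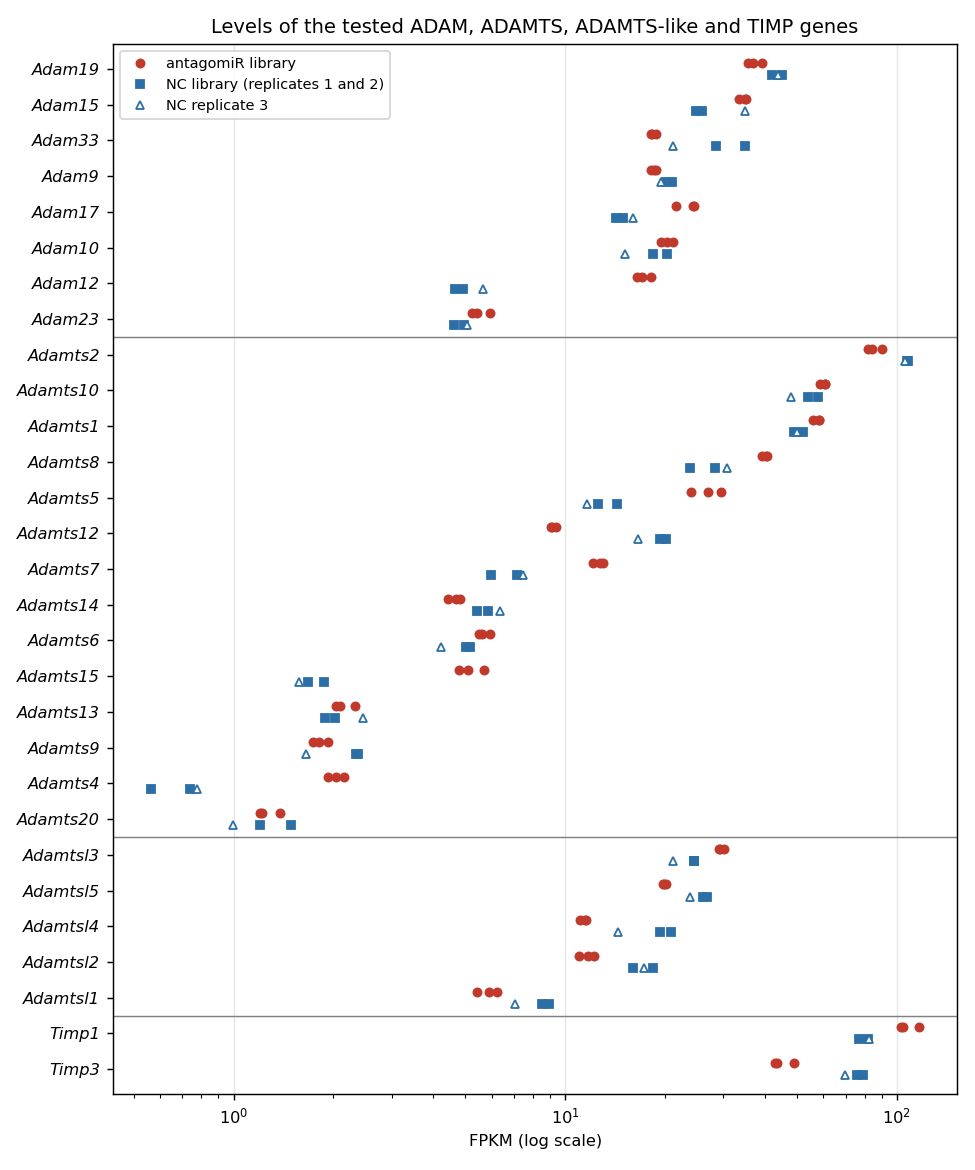
FPKM of the 29 tested genes on a log axis, with 1 point per library: antagomiR libraries as circles in the upper row of each gene, NC libraries as squares, and NC replicate 3 as an open triangle in the lower row. Adam12, Adamts15 and Adamts4 show the widest gaps between groups, and the points of Adam10, Adamts13, Adamts9 and Adamts20 are mixed. For Adam15, NC replicate 3 lies among the antagomiR libraries.

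**Figure D2:**
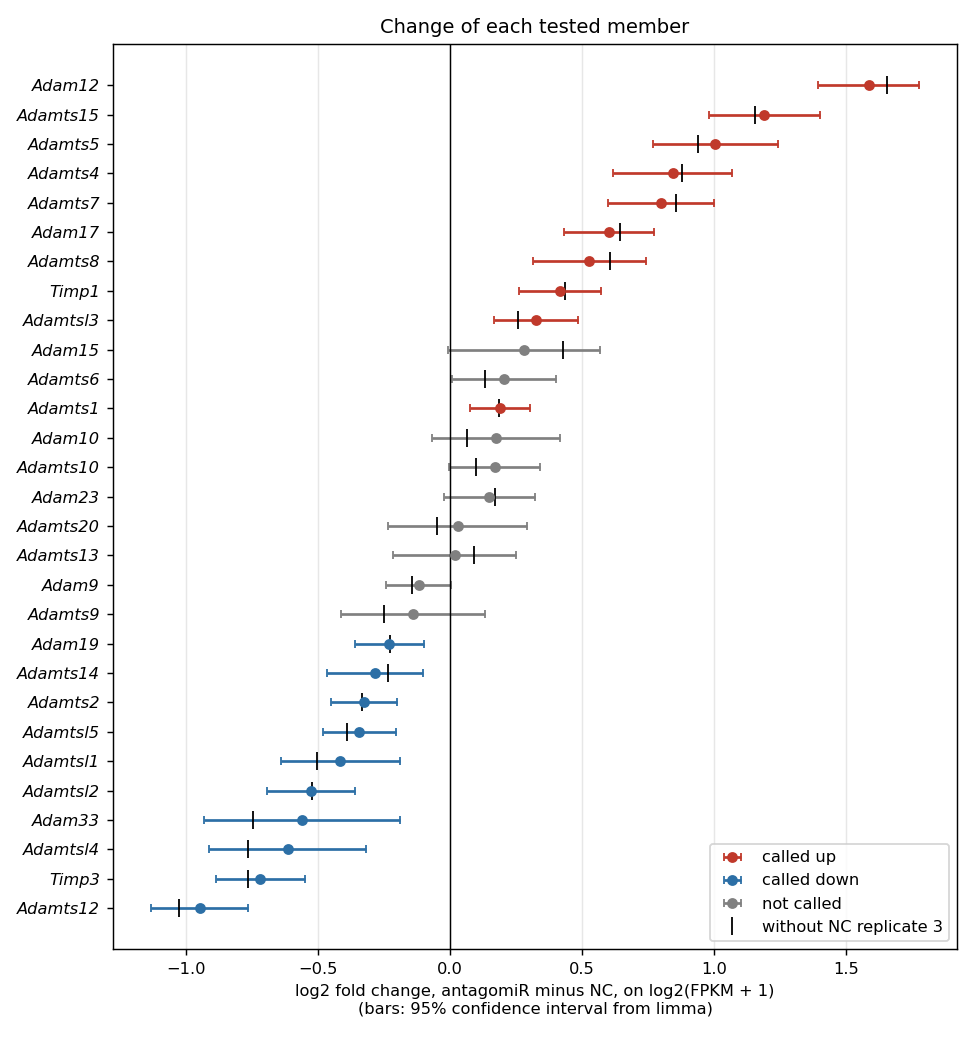
Log2 fold change, antagomiR minus NC, on log2(FPKM + 1) for the 29 tested genes, with 95% confidence intervals from limma; black ticks give the value without NC replicate 3. The order runs from Adam12 at 1.59 to Adamts12 at -0.95, and the ticks of the called genes lie on the same side of 0 as their points.

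Among the ADAM sheddases the largest change was that of Adam12, a mesenchymal ADAM that releases EGF receptor ligands such as HB-EGF. Its values were 16.4, 18.2 and 17.03 FPKM in antagomiR replicates 1 to 3, against 4.91, 4.64 and 5.66 FPKM in NC replicates 1 to 3. The antagomiR libraries all lay above the NC libraries, at 3.39 times the NC mean. On the log2 scale it rose by 1.59, standard error 0.08 (limma adjusted p = 4.47e-05), and by 1.66 without NC replicate 3. Adam12 (ENSRNOG00000018384) lies on chromosome 1 from 188686989 to 189020667 in mRatBN7.2. The RefSeq window around its start site, of 300 bases with 250 before the start, is shown because Adam12 was the member that rose most. It lies at chr1:198443631-198443930 on the minus strand of GRCr8, and capitals mark GGGCGG, the GC box letters, on either strand.
Adam12: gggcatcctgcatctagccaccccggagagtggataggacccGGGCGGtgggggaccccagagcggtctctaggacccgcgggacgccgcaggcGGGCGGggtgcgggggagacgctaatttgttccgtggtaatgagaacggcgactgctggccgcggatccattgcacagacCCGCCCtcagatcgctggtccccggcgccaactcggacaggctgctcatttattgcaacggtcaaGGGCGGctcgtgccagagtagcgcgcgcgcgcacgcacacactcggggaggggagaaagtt
The window holds 4 such matches and is 67.0% G and C, with 32 CpG.

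Adam17 also rose. It encodes TACE, the enzyme that sheds TNF, TNF receptors and L-selectin, and it is inhibited by TIMP3. Values were 21.5, 24.4 and 24.3 FPKM with the antagomiR and 15.0, 14.2 and 16.0 FPKM in NC, with no overlap. This was a rise of 0.60 on the log2 scale, standard error 0.07 (adjusted p = 0.00126). The span of Adam17 overlaps that of Iah1, which was not called (0.24), and since the strand setting is not given in the sources used here, reads in the shared part cannot be told apart. Adam10, the closest relative of Adam17 and the main sheddase of Notch, was at 19.4, 20.3 and 21.2 FPKM with the antagomiR and 20.3, 18.3 and 15.2 FPKM in NC. Here the groups overlapped, and the log2 fold change was 0.18 with a 95% interval from -0.07 to 0.42 (adjusted p = 0.252). The ratio of Adam17 to Adam10 was 1.15 ± 0.0483 in antagomiR libraries and 0.855 ± 0.173 in NC libraries (SD, n = 3 each), with NC replicate 3 at 1.05.

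Adam19 and Adam33 fell. Adam19, which in mouse is needed for heart development and can release neuregulin, was the most abundant ADAM transcript in both groups. It averaged 37.2 ± 1.78 FPKM with the antagomiR and 43.7 ± 1.51 FPKM in NC (SD, n = 3 each), a log2 fold change of -0.23 (adjusted p = 0.0233). The call of Adam19 was lost without antagomiR replicate 1 (adjusted p = 0.0939), antagomiR replicate 3 (0.0951) or NC replicate 1 (0.0589). Adam33, an ADAM gene linked to asthma in human studies, had 18.3, 18.2 and 18.7 FPKM with the antagomiR. Its NC libraries were spread widely, at 34.7, 28.6 and 21.2 FPKM, with NC replicate 3 nearest to the antagomiR libraries. The log2 fold change of -0.56 (adjusted p = 0.0378) became -0.75 without NC replicate 3 (adjusted p = 0.000356). The call of Adam33 was lost without antagomiR replicate 1, 2 or 3 (adjusted p = 0.108, 0.109 and 0.101) and without NC replicate 1 or 2 (0.0611 and 0.113).

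Adam15, Adam9 and Adam23 were not called. Adam15, a sheddase also named metargidin, had 34.8, 33.4 and 35.1 FPKM with the antagomiR and 24.8, 25.8 and 34.8 FPKM in NC. NC replicate 3 of Adam15 lay among the antagomiR libraries and its other NC libraries below them. Its log2 fold change was 0.28 with an interval from -0.01 to 0.57 (adjusted p = 0.135), and without NC replicate 3 it was called at 0.43 (adjusted p = 0.00043). That library also stood high for leukocyte markers, and their part in this result was not tested. Adam9, another sheddase, averaged 18.5 ± 0.288 FPKM with the antagomiR and 20.2 ± 0.762 FPKM in NC (SD, n = 3 each). Its log2 fold change of -0.12 (interval -0.24 to 0.01) was called only without NC replicate 3 (adjusted p = 0.0492), after both rescalings and by voom. Adam23, which lacks an active protease and binds LGI proteins in neurons, stood at 5.52 ± 0.353 FPKM with the antagomiR and 4.87 ± 0.226 FPKM in NC, with an interval from -0.02 to 0.32.

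The order of the ADAM genes by mean level was not the same in the groups. In antagomiR libraries it ran Adam19, Adam15, Adam17, Adam10, Adam9, Adam33, Adam12 and Adam23. In NC it ran Adam19, Adam15, Adam33, Adam9, Adam10, Adam17, Adam12 and Adam23. With the antagomiR, the ranges of Adam9, Adam33 and Adam12 overlapped, at means of 18.5, 18.4 and 17.2 FPKM. In NC the ranges of 4 pairs of neighbours overlapped. These were Adam15 and Adam33 (means of 28.5 and 28.1 FPKM), Adam9 and Adam10 (20.2 and 17.9 FPKM), Adam10 and Adam17 (17.9 and 15.1 FPKM), and Adam12 and Adam23 (5.07 and 4.87 FPKM). The sheddase genes summed to 165, 172 and 172 FPKM in antagomiR libraries and 166, 154 and 156 FPKM in NC, so that single members moved more than their sum. FPKM are values per length, and these orders rest on the gene lengths the authors used.

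The hyalectanase clade of ADAMTS enzymes, which cleave versican, aggrecan and related proteoglycans, rose for 5 of its 7 members. These were Adamts15, Adamts5, Adamts4, Adamts8 and Adamts1, and none of the 7 fell. Adamts4, at a mean of 0.693 FPKM in NC, was tested only because its antagomiR libraries were high. Over all tested genes 17.5% were called up and 9.21% down. Summed over the clade, the level was 131, 138 and 136 FPKM in antagomiR libraries and 96.3, 95.8 and 97.5 FPKM in NC. The groups of sums did not overlap, and the mean was 1.40 times that of NC, with NC replicate 3 beside the other NC libraries. Most of the gain in summed FPKM came from Adamts5 and Adamts8, as the stacked levels show.

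Adamts5, the major aggrecanase of mouse cartilage, had 24.0, 29.6 and 26.9 FPKM with the antagomiR, against 14.4, 12.5 and 11.6 FPKM in NC. The mean was 2.09 times that of NC, and the rise on the log2 scale was 1.01, standard error 0.10 (adjusted p = 0.000603). Adamts15, a versican-cleaving enzyme, had 4.78, 5.68 and 5.09 FPKM with the antagomiR, against 1.68, 1.87 and 1.57 FPKM in NC. This was 3.04 times the NC mean (log2 fold change 1.19, adjusted p = 0.000195). For both genes every antagomiR library was above every NC library, and NC replicate 3 was the lowest of the NC libraries, on the side away from the antagomiR.

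Adamts4, the other main aggrecanase, was low, at 2.04, 1.93 and 2.15 FPKM with the antagomiR and 0.564, 0.740 and 0.775 FPKM in NC. The ratio of means was 2.94, and the log2 fold change, understated at this level by the added 1 FPKM, was 0.84 (adjusted p = 0.00101). NC replicate 1 had 41 fragments of Adamts4, the fewest of a tested member in any library. Its span overlaps those of Ppox, which was not called (0.07), and Fcer1g, a leukocyte gene with a mean of 44.7 FPKM that rose by 1.96 on the log2 scale. Without a stated strand setting, the reads of Adamts4 and Fcer1g in the shared part cannot be told apart.

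Adamts8, an enzyme abundant in lung and heart, had 40.6, 39.1 and 40.4 FPKM with the antagomiR, against 23.8, 28.2 and 30.8 FPKM in NC. It rose by 0.53 on the log2 scale, standard error 0.09 (adjusted p = 0.00573). The NC libraries were spread more than the antagomiR libraries but stayed below them. Adamts1, a versicanase and the most abundant of the clade, changed least among the called members. It averaged 57.5 ± 1.30 FPKM with the antagomiR and 50.3 ± 1.58 FPKM in NC (SD, n = 3 each), a log2 fold change of 0.19 (adjusted p = 0.0269). Its call was lost without antagomiR replicate 1, 2 or 3 (adjusted p = 0.0655, 0.104 and 0.119), without NC replicate 2 (0.0986), with quantile-normalized values (0.0826) and with median-ratio scaling, where the log2 fold change was 0.12.

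The other members of the clade, Adamts9 and Adamts20, were not called. Adamts9 had 1.81, 1.93 and 1.73 FPKM with the antagomiR and 2.38, 2.34 and 1.66 FPKM in NC, with an interval of the log2 fold change from -0.41 to 0.13. Adamts20 averaged 1.26 ± 0.0973 FPKM with the antagomiR and 1.23 ± 0.247 FPKM in NC, with an interval from -0.23 to 0.29. For both, the libraries of the groups were interleaved.

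Some genes of this clade lie side by side in the genome, and 2 neighbouring pairs rose together. In mRatBN7.2, Adamts1 spans 24931761 to 24941103 and Adamts5 spans 25000637 to 25047205 on chromosome 11, with 59.5 kb and no other listed gene between them. Adamts15 spans 29307865 to 29331249 and Adamts8 spans 29349114 to 29368404 on chromosome 8, 17.9 kb apart, again with no listed gene between. Within each pair the sizes differed, with 0.19 for Adamts1 against 1.01 for Adamts5, and 1.19 for Adamts15 against 0.53 for Adamts8. Adamts13 and Adamtsl2 on chromosome 3, 57.9 kb apart but with 3 listed genes between them, did not move alike, with 0.02 (not called) and -0.53 (called).

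**Figure D3:**
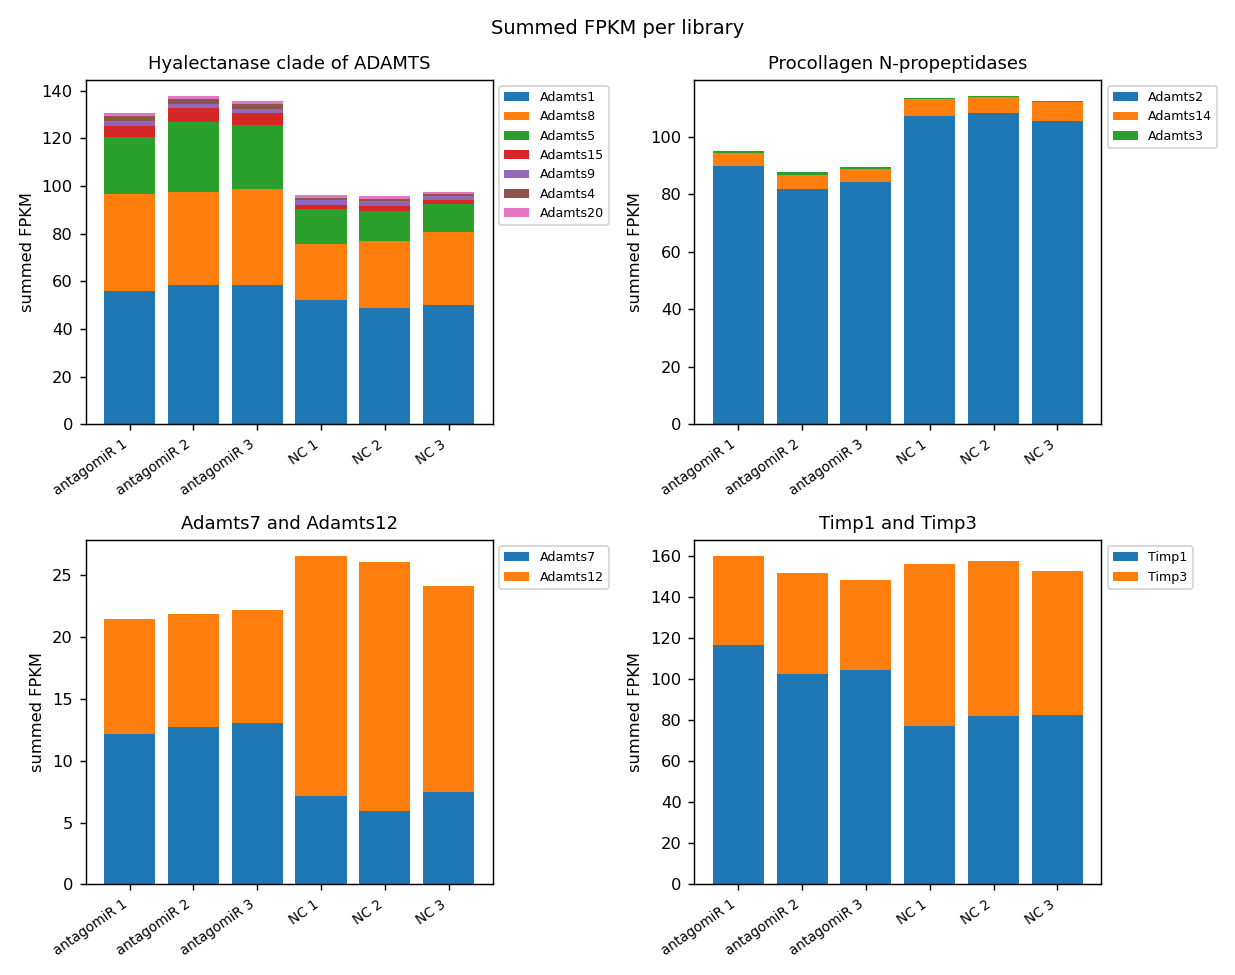
Summed FPKM per library, stacked by gene, for 4 sets; bars start at 0 and antagomiR libraries are on the left. The hyalectanase clade stands at 131 to 138 FPKM with the antagomiR and 95.8 to 97.5 FPKM in NC, while Timp1 and Timp3 change shares within sums of 148 to 160 FPKM.

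Procollagen N-propeptidases, which trim fibrillar procollagens, moved the other way where they were tested. Adamts2, the main enzyme for procollagen I and the most abundant ADAMTS transcript in both groups, had 89.9, 82.0 and 84.2 FPKM with the antagomiR. In NC it had 107, 108 and 106 FPKM, above all antagomiR libraries (log2 fold change -0.32, standard error 0.05, adjusted p = 0.00446). Adamts14, a related propeptidase, averaged 4.65 ± 0.193 FPKM with the antagomiR and 5.89 ± 0.475 FPKM in NC (SD, n = 3 each), a log2 fold change of -0.28 (adjusted p = 0.0328). The call of Adamts14 was lost without antagomiR replicate 1, 2 or 3 (adjusted p = 0.118, 0.0787 and 0.102) and without NC replicate 1 (0.0685). Adamts3, the last of this clade, was under the minimum of 1 FPKM, at 0.891, 0.935 and 0.856 FPKM with the antagomiR and 0.426, 0.408 and 0.316 FPKM in NC. Its groups did not overlap, and with the minimum at 0.1 FPKM it was called up, at 0.45 (adjusted p = 0.00573), in a fit that called 14.3% of its genes up. The 3 genes summed to 90.9 ± 3.92 FPKM with the antagomiR and 113 ± 0.922 FPKM in NC.

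Adamts7 and Adamts12, a closely related pair that cleaves cartilage oligomeric matrix protein, changed in opposite directions. Adamts7 had 12.1, 12.7 and 13.0 FPKM with the antagomiR, against 7.13, 5.96 and 7.44 FPKM in NC, a log2 fold change of 0.80 with a standard error of 0.09 (adjusted p = 0.00079). Adamts12 had 9.35, 9.05 and 9.11 FPKM with the antagomiR, against 19.3, 20.1 and 16.6 FPKM in NC. At -0.95, with a standard error of 0.08 (adjusted p = 0.000269), it was the largest fall among the 29. Neither gene's groups overlapped. The ratio of Adamts7 to Adamts12 was 1.30, 1.41 and 1.43 in antagomiR libraries and 0.369, 0.297 and 0.448 in NC libraries, so their order was turned round in every library. Their sum was 21.8 ± 0.331 FPKM with the antagomiR and 25.5 ± 1.30 FPKM in NC. The RefSeq windows of the pair are shown because the genes are related and moved apart. They lie in GRCr8 at chr8:99584279-99584578 and chr2:61759737-61760036, both on the plus strand, and neither holds GGGCGG, so no letters are in capitals.
Adamts7: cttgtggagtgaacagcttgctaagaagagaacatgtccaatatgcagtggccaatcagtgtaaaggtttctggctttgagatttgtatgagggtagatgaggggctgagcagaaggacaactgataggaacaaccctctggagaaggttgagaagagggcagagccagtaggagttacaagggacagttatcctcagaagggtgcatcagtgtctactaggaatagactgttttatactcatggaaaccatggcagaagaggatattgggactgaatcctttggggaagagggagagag
Adamts12: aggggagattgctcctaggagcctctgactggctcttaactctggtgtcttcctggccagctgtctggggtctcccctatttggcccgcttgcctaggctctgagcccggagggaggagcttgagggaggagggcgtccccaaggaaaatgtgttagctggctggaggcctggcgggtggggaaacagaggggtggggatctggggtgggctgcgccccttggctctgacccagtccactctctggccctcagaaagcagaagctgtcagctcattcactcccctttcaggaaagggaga
G and C made up 46.7% of the Adamts7 window, with 0 CpG, and 61.3% of the Adamts12 window, with 5 CpG.

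The remaining tested ADAMTS genes were not called. Adamts10 and Adamts6, a pair that acts on fibrillin microfibrils, were both above all their NC libraries with the antagomiR, by small amounts. Adamts10 had 58.5, 60.6 and 60.6 FPKM with the antagomiR and 58.0, 53.8 and 48.0 FPKM in NC (log2 fold change 0.17, adjusted p = 0.134). It was called without NC replicate 1, at 0.23 (adjusted p = 0.0492), and stood at 0.10 without NC replicate 3. Adamts6 averaged 5.68 ± 0.217 FPKM with the antagomiR and 4.80 ± 0.503 FPKM in NC (log2 fold change 0.21, adjusted p = 0.117). Adamts13, the protease of von Willebrand factor, stood at 2.15 ± 0.156 FPKM with the antagomiR and 2.12 ± 0.297 FPKM in NC, with an interval from -0.22 to 0.25.

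Of the 5 ADAMTS-like genes, which encode matrix proteins without protease activity, 4 fell and 1 rose, where 9.21% and 17.5% of all tested genes did. Adamtsl4, which binds fibrillin microfibrils and underlies displaced lenses in human families, had 11.5, 11.6 and 11.1 FPKM with the antagomiR. Its NC libraries were at 20.8, 19.3 and 14.4 FPKM, again with NC replicate 3 nearest to the antagomiR (log2 fold change -0.61, adjusted p = 0.0115, and -0.76 without that library). Adamtsl2, which binds latent TGF-beta binding protein and fibrillin, had 10.99, 11.7 and 12.2 FPKM with the antagomiR, against 16.0, 18.4 and 17.3 FPKM in NC. For Adamtsl2 the NC libraries lay close together, and the log2 fold change was -0.53 with and -0.52 without NC replicate 3 (adjusted p = 0.00207 and 0.00145). Adamtsl5 averaged 19.9 ± 0.205 FPKM with the antagomiR and 25.6 ± 1.53 FPKM in NC, and Adamtsl1 averaged 5.85 ± 0.389 and 8.16 ± 0.969 FPKM (SD, n = 3 each). Their log2 fold changes were -0.34 (adjusted p = 0.00553) and -0.41 (adjusted p = 0.018). The call of Adamtsl1 was lost without antagomiR replicate 1 or 3 (adjusted p = 0.0725 and 0.064) and without NC replicate 1 or 2 (0.0508 and 0.0667).

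Adamtsl3, the most abundant ADAMTS-like transcript with the antagomiR, was the one that rose. It had 29.2, 30.1 and 29.1 FPKM with the antagomiR, against 24.4, 24.5 and 21.2 FPKM in NC (log2 fold change 0.33, adjusted p = 0.0123). Its call was lost without antagomiR replicate 2 (adjusted p = 0.0553). In NC, Adamtsl5 was the most abundant of the family and Adamtsl3 followed, at 25.6 and 23.4 FPKM.

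Timp1 rose and Timp3 fell, and the means of their sum differed by less than the spread between libraries. Timp1, a soluble inhibitor that acts on most matrix metalloproteinases and on ADAM10, had 117, 103 and 104 FPKM with the antagomiR, against 76.9, 81.7 and 82.5 FPKM in NC. It rose by 0.42 on the log2 scale, standard error 0.07 (adjusted p = 0.00389). Timp3, which is bound to the matrix and inhibits ADAM17 and the aggrecanases ADAMTS4 and ADAMTS5 as well, had 43.0, 48.9 and 43.6 FPKM with the antagomiR. In NC it had 79.1, 75.6 and 69.8 FPKM, a log2 fold change of -0.72 with a standard error of 0.07 (adjusted p = 0.000617). For each gene the groups were apart by more than the spread within them. The ratio of Timp1 to Timp3 was 2.71, 2.10 and 2.39 in antagomiR libraries and 0.972, 1.08 and 1.18 in NC libraries. Together they came to 153 ± 6.01 FPKM with the antagomiR and 155 ± 2.60 FPKM in NC (SD, n = 3 each). Timp1 (ENSRNOG00000010208) lies on chromosome X from 1212972 to 1217664 and Timp3 (ENSRNOG00000004303) on chromosome 7 from 17521919 to 17571839 in mRatBN7.2. Both spans overlap those of synapsin genes, Syn1 at a mean of 0.261 FPKM and Syn3 at 0.369 FPKM. Timp4, the inhibitor enriched in adult heart, was listed at 0.038 FPKM or less in every library.

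The RefSeq windows of these 2 inhibitors are shown because the genes moved in opposite directions. They lie in GRCr8 at chrX:3771073-3771372 and chr7:19459509-19459808, both on the minus strand, with GGGCGG on either strand in capitals.
Timp1: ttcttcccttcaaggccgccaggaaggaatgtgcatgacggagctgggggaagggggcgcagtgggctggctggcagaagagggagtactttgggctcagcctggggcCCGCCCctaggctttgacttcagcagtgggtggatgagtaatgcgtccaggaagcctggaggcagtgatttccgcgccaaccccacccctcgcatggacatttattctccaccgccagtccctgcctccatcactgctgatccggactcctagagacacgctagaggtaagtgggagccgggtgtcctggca
Timp3: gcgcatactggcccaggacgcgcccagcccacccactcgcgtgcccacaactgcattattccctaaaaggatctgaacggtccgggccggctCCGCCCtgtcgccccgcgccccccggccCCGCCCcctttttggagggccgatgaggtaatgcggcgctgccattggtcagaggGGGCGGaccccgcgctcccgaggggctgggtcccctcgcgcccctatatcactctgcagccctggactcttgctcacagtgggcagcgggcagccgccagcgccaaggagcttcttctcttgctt
The Timp1 window holds 1 match and 12 CpG in 61.3% G and C, and that of Timp3 holds 3 matches and 26 CpG in 68.7% G and C. A RefSeq window was found for 23 of the 29 tested members; Adam9, Adam23, Adam33, Adamts5, Adamts8 and Adamts15 had none. GGGCGG was found in a window of 5 of 7 members that rose, 7 of 9 that fell and 5 of 7 not called, against 36.0% of all 27457 genes with a window, which include non-coding genes. The AP-1 letters TGANTCA were in 0 of 7 that rose and 1 of 9 that fell (Adam19), against 8.04% of all genes. The letters TTCNNNGAA, which STAT factors bind, were in 1 of 7 that rose (Adamts4) and 0 of 9 that fell, against 9.39%. The NF-kB consensus was in 1 of 7 that rose (Adam12) and 2 of 9 that fell (Adamts12 and Adamtsl1), against 8.16%. TATAAA was in 2 of 7 that rose (Adamts1 and Adamts7) and 2 of 9 that fell (Adamtsl1 and Adamtsl2), against 15.3%. Among the 7 not called, the AP-1 letters were in 0 and TTCNNNGAA in 1 (Adamts6). In the same 7, the NF-kB consensus was in 2 (Adamts9 and Adamts20) and TATAAA in 1 (Adamts10). Both strands were searched, and the NF-kB and GC box matches of Adamts9 overlap each other. These matches describe letters in short windows and are not binding sites.

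The 23 members below the minimum of 1 FPKM were mostly near 0. Of them 5 were at 0 in every library (Adam3a, Adam5, Adam21, Adam26a and Adam34l, named here after their values were seen), all of them ADAM genes known from the male reproductive tract. The highest means were those of Adamts17, at 0.745 FPKM, Adam1a, at 0.679 FPKM, and Adamts3, and the other 20 had means under 0.5 FPKM. Nearest to the minimum on its other side were Adamts20, with a mean of 1.24 FPKM, and Adamts4, at 1.37 FPKM.

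NC replicate 3 lay on the antagomiR side of NC replicates 1 and 2 for 13 of the 20 called members, or 65.0%, against 66.2% of all 3216 called genes. The shift was 79.1% of the difference between the antagomiR mean and the mean of NC replicates 1 and 2 for Adam33, 65.2% for Adamtsl4 and 57.3% for Adamtsl1. It was 7.07% for Adam12, 16.1% for Adam17 and 11.2% for Timp1. The other 7 called members were shifted away from the antagomiR. The widest of these shifts were those of Adamts14, at -73.7%, and Adamtsl3, at -65.1%, followed by Adamts5 at -13.7%, and the other 4 lay between -5.85% (Adamts15) and -1.84% (Adamtsl2). The part of leukocyte RNA in these shifts was not tested.

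**Figure D4:**
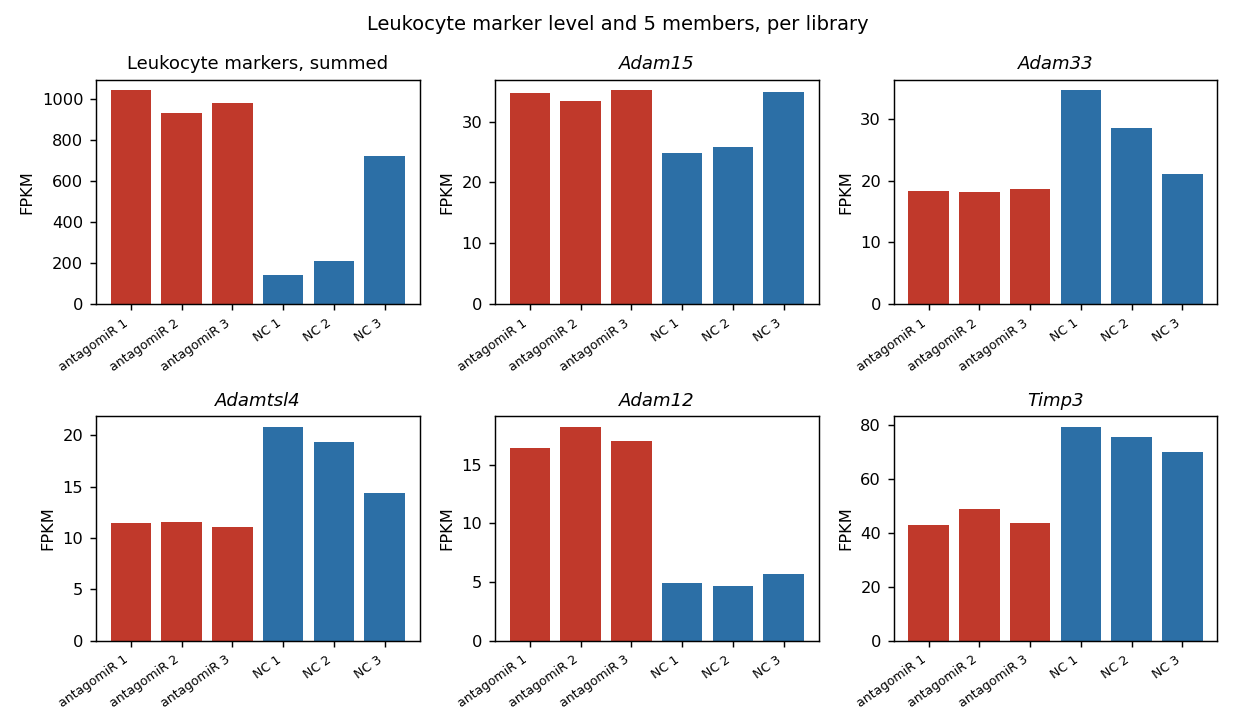
Summed FPKM of 14 leukocyte markers, of which Lyz2 is the largest part, and FPKM of 5 members in each library, with antagomiR libraries in red on the left and NC libraries in blue; bars start at 0. NC replicate 3, at 725 FPKM of leukocyte markers, lies near the antagomiR libraries for Adam15 and Adam33 and near the other NC libraries for Adam12 and Timp3.

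Genes that act with these families were taken from 8 lists of regulators, substrates and other matrix proteases. Of their 69 tested genes 23 rose and 16 fell. These are to be read against 17.5% and 9.21% of all genes. Without NC replicate 3, 27 rose and 21 fell, where 26.5% and 13.9% of all genes did. The count of falls was 8 without antagomiR replicate 1 (5.99% of all genes) or 3 (5.55%), 10 without antagomiR replicate 2 (5.88%) and 9 without NC replicate 2 (6.5%). Among 9 tested regulators of ADAM10 and ADAM17, there were 3 rises and 1 fall, and the median change was 0.01 on the log2 scale. Rhbdf2, which encodes iRhom2, the partner that carries ADAM17 to the cell surface, had 13.0, 13.6 and 13.6 FPKM with the antagomiR, against 2.26, 2.83 and 4.14 FPKM in NC (log2 fold change 1.85, adjusted p = 0.000299). Frmd8, which stabilises the complex of iRhom and ADAM17, rose by 0.42 (adjusted p = 0.0109), whereas Rhbdf1, the other iRhom gene, was at -0.09 (adjusted p = 0.21). The ADAM10-binding tetraspanin genes Tspan5 and Tspan17 were called at 0.22 and -0.48. The Tspan17 call did not hold without antagomiR replicate 1 (adjusted p = 0.0637) or 3 (0.0691), and that of Tspan5 was lost in 5 of the 6 fits that left out 1 library, all but the one without NC replicate 3.

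Membrane proteins that ADAM enzymes shed showed 13 rises and 4 falls among 29 tested genes, with a median of 0.22. There were 7 falls without NC replicate 3, and 2 without NC replicate 2 or any 1 antagomiR library. The TNF gene, whose product ADAM17 releases, had 9.43, 10.4 and 9.90 FPKM with the antagomiR, against 0.247, 0.430 and 0.530 FPKM in NC (Tnf, log2 fold change 2.96, adjusted p = 6.94e-06). Beside Tnf, the adhesion molecule genes Vcam1 (4.28) and Icam1 (1.72) and the membrane chemokine gene Cx3cl1 (2.88) had the smallest p of this list. Tnf and Vcam1, with NC means of 0.402 and 0.559 FPKM, reached the minimum of 1 FPKM only through the antagomiR libraries. The growth factor gene Hbegf, a substrate of ADAM12 and ADAM17, fell. It averaged 23.8 ± 0.624 FPKM with the antagomiR and 34.0 ± 4.18 FPKM in NC (log2 fold change -0.49, adjusted p = 0.0077). Leukocyte markers were highest, among NC libraries, in NC replicate 3. There Tnf, Vcam1, Cx3cl1 and Icam1 had moved 1.99%, 1.62%, 4.56% and 6.55% of the way from NC replicates 1 and 2 to the antagomiR mean. Cd44 had moved 25.9%, Cxcl16 26.4% and Csf1r, which is also a leukocyte marker, 82.7%. The part of leukocyte RNA in this list was not tested.

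Of 6 listed matrix substrates of the ADAMTS enzymes 2 were tested, of which Vcan fell and Bgn was not called. Bgn, which encodes the small proteoglycan biglycan, averaged 2729 ± 66.1 FPKM with the antagomiR and 2767 ± 96.5 FPKM in NC (log2 fold change -0.02, adjusted p = 0.881). Vcan, which encodes versican, the proteoglycan these enzymes cut in heart, had 38.4, 38.1 and 36.4 FPKM with the antagomiR, against 61.9, 58.7 and 49.6 FPKM in NC (log2 fold change -0.57, adjusted p = 0.00317). Aggrecan (Acan) was under the minimum, at 0.223 to 0.260 FPKM with the antagomiR and 0.448 to 1.07 FPKM in NC. Of 7 tested microfibril genes 4 fell and none rose. Ltbp2 averaged 294 ± 9.34 FPKM with the antagomiR and 534 ± 36.4 FPKM in NC (log2 fold change -0.86, adjusted p = 0.000242), and Ltbp4 fell by 0.44. Fbn1, which encodes fibrillin 1, and Ltbp3 fell by 0.36 and 0.16. The call of Fbn1 was lost without antagomiR replicate 1 or 3 or NC replicate 2 (adjusted p = 0.061, 0.0808 and 0.0678), and that of Ltbp3 in all fits that left out 1 library except the one without NC replicate 3.

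Of 6 tested procollagen and trimming genes, 2 fell and none rose. Tll1, a protease that trims the other end of procollagen, fell by 0.76 (adjusted p = 0.000703). Col1a2 was called at -0.31, without a call in fits that left out antagomiR replicate 1, 2 or 3 or NC replicate 2 (adjusted p = 0.105, 0.0856, 0.137 and 0.103). Bmp1, at 0.01, and Pcolce, its enhancer, at 0.01, were not called. Pofut2, which adds fucose to the thrombospondin repeats of ADAMTS proteins, was called at -0.21 and lost its call without any 1 of the antagomiR libraries or NC replicate 2 (adjusted p from 0.0633 to 0.0941).

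Matrix metalloproteinases, the other targets of TIMP proteins, showed 6 rises and 3 falls among 11 tested genes, with a median of 0.38. The widest rises among the tested genes of the list, named here after their values were seen, were those of the macrophage elastase gene Mmp12 and the gelatinase gene Mmp9. Mmp12 had 218, 219 and 224 FPKM with the antagomiR, against 22.3, 23.0 and 80.3 FPKM in NC (log2 fold change 2.63, adjusted p = 0.00556). Mmp9 had 6.83, 6.88 and 7.42 FPKM with the antagomiR, against 0.396, 0.567 and 2.42 FPKM in NC (log2 fold change 2.04, adjusted p = 0.00364). For both, NC replicate 3 was the highest NC library, as it was for the leukocyte markers, whose part in this list was not tested. Mmp13 was just under the minimum of 1 FPKM, at a mean of 0.989 FPKM. It had 1.56, 2.34 and 2.02 FPKM with the antagomiR, against 0, 0 and 0.0195 FPKM in NC. Of the other untested genes, Mmp10 and Mmp3 lay above all NC libraries with the antagomiR and Mmp8 below them, while Mmp7, Mmp15 and Mmp24 overlapped. Mmp28 fell by 0.98 and Mmp16 by 0.47, while Mmp17 rose by 1.02 and Mmp2, the gelatinase of fibroblasts, by 0.44 (adjusted p = 0.00219). Mmp14, the membrane protease that activates MMP2, was at 0.02 and not called. Among other inhibitors A2m, a broad protease trap, rose by 0.45 (adjusted p = 0.00439), and Reck, a membrane inhibitor of ADAM10 and MMPs, stood at -0.01 with 21.8 ± 0.661 FPKM with the antagomiR and 21.9 ± 1.41 FPKM in NC.

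**Figure D5:**
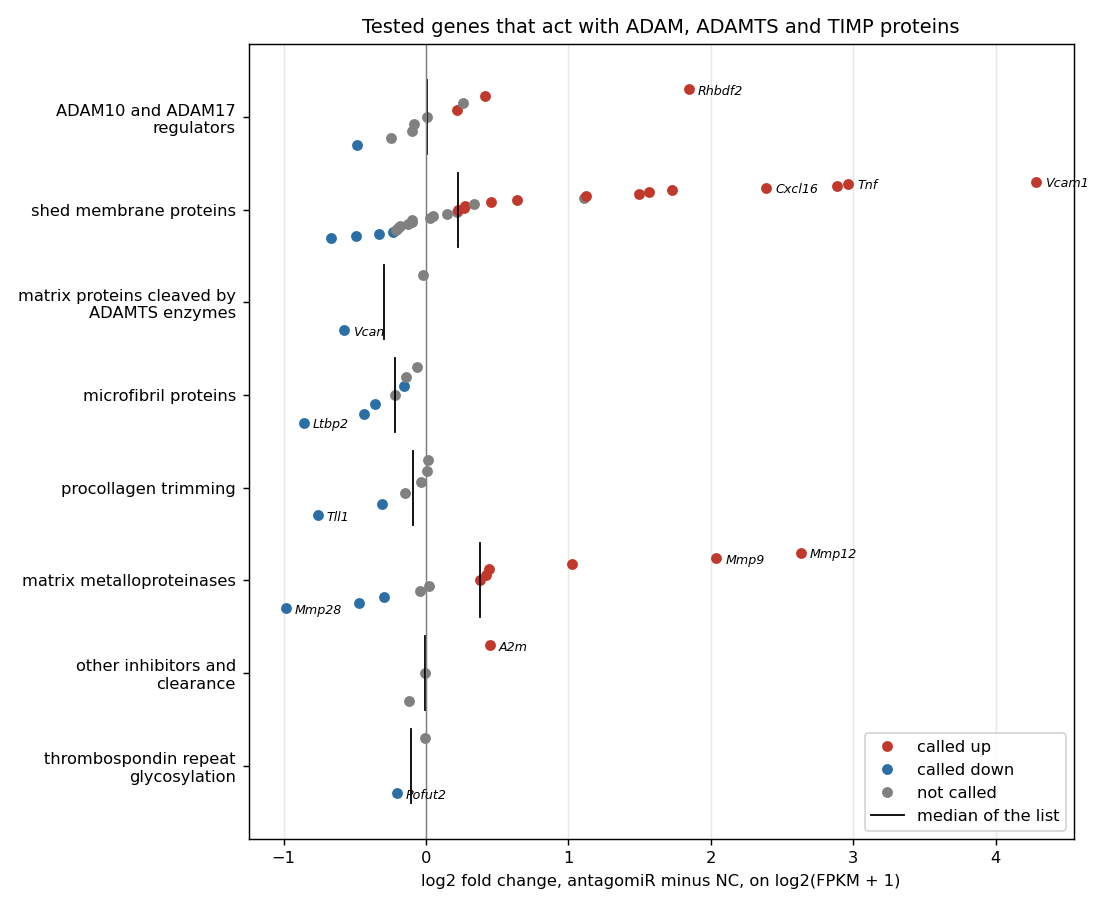
Log2 fold change, antagomiR minus NC, on log2(FPKM + 1) for each tested gene of 8 lists, with a black line at the median of each list. Rhbdf2, at 1.85, stands apart from the other regulators of ADAM10 and ADAM17, and the 7 microfibril genes are all below 0.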

How the data were processed

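The deposited table holds FPKM, fragments scaled to gene length and library size, with 1 column per library and 0 unassigned columns. Per the labels' protocols, polyA RNA was read as paired ends of 150 bp. Per the submitters' processing notes, FastQC, cutadapt, HISAT2, HTSeq and edgeR were used with the build mRatBN7.2; annotation and strand setting are not given in the sources used here. Fragment counts were recovered from steps in the FPKM, with a gene length that made all values whole within 0.01 for 100% of the 20134 genes above 0. Totals ran from 19472409 to 24622667, which limits low genes most.

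The test was limma 3.58.1 in R 4.3.3 (eBayes with a trend, two-sided, Benjamini-Hochberg over the 12024 genes averaging 1 FPKM or more) on log2(FPKM + 1), without a block; these log2 values were computed from the deposited FPKM. Fold changes are antagomiR minus NC and are understated for low genes. In simulated data for this comparison with 12024 genes, limma called 67.2% of 1.5-fold and 98.5% of 2-fold changes, and 17 of its 194 calls were unchanged genes. The simulation gave every gene the same dispersion, changed only a small part of the genes and held no outlying library. Its shares therefore need not hold for these data. Since separate isolations are not stated, the spread behind each p-value may be technical. Overlapping and near-identical genes cannot be told apart. Members and lists were chosen with earlier results of these data known. Every tested member is named; of each other list up to 4 called genes with the smallest p, and textbook partners, are. Replicate numbers were not used to pair the libraries in the main fit, since the labels do not say that they mark a shared preparation. Mature miR-142-3p is not measured by these libraries. Alternatives were other pseudocounts, filters and scalings, a block, no trend, voom on recovered fragments and leaving out each library.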

Additional observations from a re-analysis of the deposited data

How the results depend on the processing

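Across 16 alternatives, 8 of the 10 rises and 6 of the 10 falls among the members kept direction and call wherever a value was given. Leaving out 1 library gave 8 to 11 rises and 6 to 11 falls among members, and 20 to 27 rises and 8 to 21 falls among the related genes, with 10.1% to 26.5% of all genes called up and 5.55% to 13.9% down. Over pairs of a member and an alternative, 413 had an unchanged call and direction, 29 calls were lost, 6 were gained and 11 changed sign without a call in either fit; no called member changed sign. The labels do not say that equal replicate numbers mark a shared preparation, and deviations of equal numbers correlated at -0.16, -0.06 and -0.04. With the replicate block, a pairing by number, 17 of 20 member calls were kept (not Adam19, Adamts1 and Adamts14), 10 related genes fell, and 6.73% of all genes were called down. For none of these was the cause tested. Adam33 and Adamts14 lost their calls with no filter on low values (adjusted p = 0.0752 and 0.0618), and Adamts1 lost its call by voom (0.118). Depth limits Adamts4 most among tested members, with 41 fragments in NC replicate 1.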
